A study of Rattus norvegicus with 15 samples.

Results

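The mitochondrial respiratory chain and ATP synthase were followed in rat lung as a pair of gene classes, the subunits encoded by mitochondrial DNA and those encoded in the nucleus. Members were the rows of the expression table whose symbol begins with Mt-, or with Nduf, Uqcr, Atp5 or Cox4 to Cox8, together with Sdha, Sdhb, Sdhc and Sdhd. Of 22250 rows, 110 matched, 13 mitochondrial and 97 nuclear. A level of at least 1 FPKM (fragments scaled to gene length and library size) in at least 5 of 15 libraries was reached by 103 of them, all 13 mitochondrial and 90 nuclear, among 13172 such genes in the table. The 7 rows below that level were Ndufa1, Cox7a1, Cox7b2, Cox8c, Cox6c-ps1, Atp5pb and one of the rows named Ndufa10l1 (ENSRNOG00000062245), and they were not tested.

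The libraries came from lungs of wild-type (WT) rats in 3 groups of 5. Control rats were normal animals. COPD rats had been given lipopolysaccharide (LPS), a bacterial cell wall component, and smoke by way of the trachea, as a model of chronic obstructive pulmonary disease. WDD rats had the same exposure and were also given Wendan Decoction, a traditional Chinese herbal formula, into the stomach. No group received the decoction without the exposure, and the sources used here give no strain, age, dose or time. Whether the 5 libraries of a group stem from 5 different rats is not stated, and the p-values therefore reflect only how these samples vary, which may be technical.

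Libraries were of similar depth, 0.879 to 1.11 times that of control 2 as read from the steps between low FPKM values. Summed FPKM of 10 alveolar type 2 cell markers, which mark the labelled tissue, lay at 16637 to 25378 in control, 3107 to 14407 in COPD and 19708 to 23089.9 in WDD lungs. Sums of alveolar type 1, ciliated, endothelial and smooth muscle markers likewise lay below all controls in COPD libraries, and above all COPD libraries in WDD lungs. Of tested markers, 8 of 10 for type 2, 8 of 8 for type 1, 5 of 6 for ciliated, 6 of 7 for endothelial and 10 of 10 for smooth muscle cells were called lower in COPD than in control lungs (limma), where 66.4% of all genes were. After median-of-ratios scaling, described below, 7, 7, 4, 3 and 7 were lower, where 32.3% of all genes were. With it, 2 type 2 markers were higher. Of 7 alveolar macrophage markers, 1 was higher and 3 lower as deposited, and 4 and 3 after that scaling. Summed neutrophil markers lay at 178 to 268 FPKM in control, 14408 to 49970 in COPD and 132 to 703 in WDD lungs. All 12 tested of 15 listed were higher in COPD than in control lungs, where 8.23% of all genes were. The same 12 were lower in WDD than in COPD lungs, where 6.63% of all genes were. A gene can pass the filter through the 5 COPD libraries alone, so these counts are a description. The part of these cell types in the results was not tested. In whole lung, fewer cells of a type and less RNA per cell cannot be told apart.

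Oxidative phosphorylation runs through complexes of the inner mitochondrial membrane. Complex I and complex II feed electrons to ubiquinone, complex III passes them to cytochrome c and complex IV to oxygen, and complex V, the ATP synthase, uses the resulting proton gradient to make ATP. Complex II is wholly nuclear encoded, whereas the other complexes join a few mitochondrially encoded core proteins to many nuclear encoded ones, which are made in the cytosol and imported. Mitochondrial genes are transcribed as long polycistronic RNAs by their own polymerase and carry no introns, so their RNA and that of the nuclear genes come from separate machineries.

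The 2 classes moved apart in COPD lungs and came closer again in WDD lungs. The ratio of summed mitochondrial to summed nuclear FPKM, which does not depend on how a library is scaled, was 7.10, 4.15, 8.96, 8.61 and 6.66 in control 1 to 5. In COPD 1 to 5 it was 123, 26.8, 37.4, 63.2 and 52.5, and in WDD 1 to 5 it was 14.01, 14.6, 19.7, 15.5 and 12.9. The groups did not overlap, with control lowest and COPD highest. On the log2 scale the mean ratio was 2.94 higher in COPD than in control, 1.80 lower in WDD than in COPD and 1.15 higher in WDD than in control lungs; it is a description, since the members were chosen with earlier results known.

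Most of this distance lay on the mitochondrial side. The 13 mitochondrial genes summed to 25773 to 53341 FPKM in control, 255699 to 517147 in COPD and 122878 to 178527 in WDD lungs. The 90 nuclear genes summed to 5219 to 7512 FPKM in control, 4200 to 9539 in COPD and 8769.5 to 10988 in WDD lungs. Nuclear sums of COPD libraries overlapped those of both other groups, whereas all WDD sums lay above all control sums. As a percentage of the FPKM sum without mitochondrial genes, the nuclear class held 1.14 to 1.499 in control, 1.10 to 1.90 in COPD and 1.68 to 2.005 in WDD lungs.

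**Figure D1:**
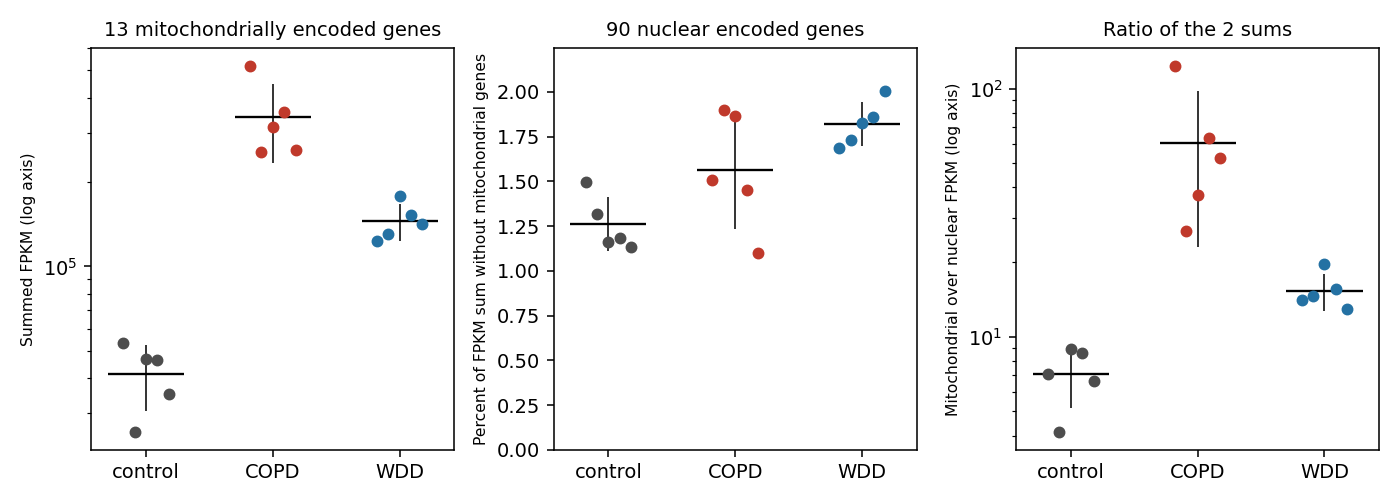
Left, summed FPKM of the 13 mitochondrial genes (log axis); middle, the 90 nuclear genes as percent of the FPKM sum without mitochondrial genes; right, the ratio of the summed FPKM of both classes (log axis). Points are libraries, horizontal bars means and vertical bars SD (n = 5 per group); the ratio spans 26.8 to 123 in COPD libraries and does not reach 9 in control libraries.

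Within the mitochondrial class, complex I genes had smaller fold changes than complex IV genes in COPD lungs, by little for Mt-nd1 and Mt-nd2, a difference that was not tested. In the COPD against control comparison, where 74.7% of the 13172 tested genes were called at an adjusted p under 0.05 (limma, Benjamini-Hochberg over all genes; 8.23% higher and 66.4% lower), 12 of 13 mitochondrial genes were called higher and none lower. No mitochondrial gene was lower at an unadjusted p under 0.05. The median log2 fold change was 2.93 for the class, 2.46 for its 7 complex I genes and 3.10 for its 3 complex IV genes, against -0.81 for all genes. Mt-nd1 and Mt-nd2, at 2.93 and 2.98, stood near Mt-co3 at 3.01, and the other complex I genes had 1.64 to 2.74. Fold changes are on the log2(FPKM + 1) scale throughout, with SE.

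Mt-co1, the catalytic core of complex IV, stood at 12933, 6459, 10838, 10453 and 8682 FPKM in control 1 to 5 and at 152795, 62780.3, 80164, 94622 and 67301 FPKM in COPD 1 to 5. In WDD 1 to 5 it stood at 32605, 30484, 36480.4, 37333 and 33524 FPKM. The groups did not overlap, with WDD between, and COPD 1 was the highest library. The log2 fold change was 3.17 ± 0.29 for COPD against control (adjusted p = 1.01e-07, limma) and 1.82 ± 0.29 for WDD against control (adjusted p = 0.000215, limma).

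Mt-nd5, a proton-pumping subunit of complex I, stood at 783, 461, 1048, 1063 and 735 FPKM in control 1 to 5. It stood at 6239, 2459.7, 4314, 5648 and 3861 FPKM in COPD 1 to 5 and at 1969, 2127, 3739, 2538 and 2205 FPKM in WDD 1 to 5. COPD and WDD libraries overlapped, and both lay above all controls. Its log2 fold change was 2.45 ± 0.28 for COPD against control (adjusted p = 9.84e-07, limma) and -0.81 ± 0.28 for WDD against COPD (adjusted p = 0.0202, limma), and the second call ended in 3 of the fits that left out a library.

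As a share of the mitochondrial FPKM sum, complex I genes held 20.4 to 22.7% in control, 17.3 to 19.7% in COPD and 19.9 to 23.3% in WDD lungs. COPD libraries lay below all others on this measure. Complex IV genes held 56.3 to 60.0% in control, 60.1 to 64.2% in COPD and 54.7 to 61.1% in WDD lungs. Singly, Mt-co1 held a mean of 23.95% in control and 26.4% in COPD lungs, Mt-co2 16.4% and 17.2%, and Mt-co3 17.7% and 17.5%. For each of these genes the libraries of control and COPD lungs overlapped. Mt-cyb, the complex III subunit, held 8.26 to 9.66%, 8.07 to 9.55% and 8.30 to 9.98% in control, COPD and WDD lungs, ranges that overlap.

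**Figure D2:**
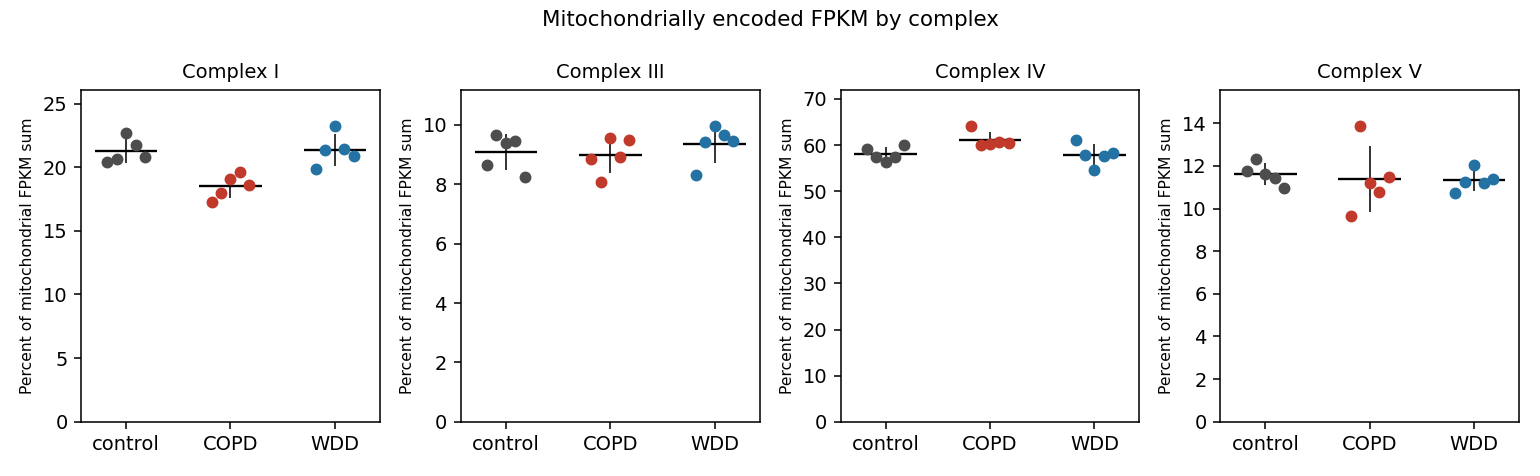
Percent of the mitochondrial FPKM sum held by the genes of each complex, by library; horizontal bars are means and vertical bars SD (n = 5 per group). Complex I holds 17.3 to 19.7% in COPD libraries and at least 19.9% in the other libraries.

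Some mitochondrial rows need care. Mt-nd6, the complex I subunit on the opposite strand from the rest, had a log2 fold change of 2.26 ± 0.26 for COPD against control (adjusted p = 1.01e-06, limma) and of -0.62 ± 0.26 for WDD against COPD (adjusted p = 0.0464, limma), and the latter call ended in 12 of the fits that left out a library. Whether counting used strand is not stated. Mt-nd4 stood at 604, 94.4, 276, 1134 and 675 FPKM in WDD 1 to 5 and at 946, 255, 380.4, 470.1 and 433 FPKM in COPD 1 to 5, and its difference between these groups was -0.13 ± 0.52 (adjusted p = 0.843, limma). Mt-nd4l, with which it shares a transcript and overlaps, stood at 1145 to 1949 FPKM in WDD and 1219 to 4045 FPKM in COPD libraries, and the assignment of reads between these rows is uncertain.

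Mt-atp8, which overlaps Mt-atp6 in the ATP synthase transcript, was not called in any of the comparisons on the deposited values. It stood at 7.68, 2.70, 2.42, 6.57 and 4.01 FPKM in control 1 to 5 and at 8.31, 3.14, 5.76, 7.46 and 7.11 FPKM in COPD 1 to 5, a difference of 0.42 ± 0.33 (adjusted p = 0.252, limma). After median-of-ratios scaling this difference was 1.21 and called higher (adjusted p = 0.00822, limma). On the deposited values its libraries overlapped between all groups. Mt-atp6 stood at 29907 to 49935 FPKM in COPD libraries, and the assignment of shared reads between these rows is uncertain.

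In WDD against COPD lungs, where 63.8% of all genes were called (57.1% higher and 6.63% lower), 11 mitochondrial genes were called lower and none higher, also none higher at an unadjusted p under 0.05. The class median was -1.02, against 0.54 for all genes. Without each library in turn, 8 to 11 genes were called, with no filter on low values 6, and with a required log2 fold change of at least 1, 7. In WDD against control lungs, where 37.3% were called (6.35% higher and 31.0% lower), 12 were called higher and none lower, with a median of 1.82 against -0.23 for all genes. The comparisons share their libraries pairwise, so they are not independent.

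The nuclear class was mixed in COPD lungs. Of 90 genes, 17 were called higher, 24 lower and 49 neither, beside 8.23% of all genes higher and 66.4% lower. The class median was -0.08 against -0.81 for all genes. By complex, 6 of 35 complex I genes were higher and 7 lower, 2 of 9 complex III genes were higher and 3 lower, 4 of 18 complex IV genes were higher and 5 lower, and 5 of 16 complex V genes were higher and 4 lower. Of 4 complex II genes 3 were lower and of 8 complex I assembly factors (Ndufaf) 2 were lower, where 66.4% of all genes were. None was higher in either set, also at an unadjusted p under 0.05. Ndufa4 and Ndufa4l2 were counted with complex IV, where the protein of the first is now placed.

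These counts turned with the scaling of the libraries. After median-of-ratios scaling, which moves the median of all genes from -0.81 to -0.05, 68 nuclear genes were higher and 5 lower, with a class median of 0.82 (all genes: 30.2% higher and 32.3% lower). Scaled to the FPKM sum without mitochondrial genes, 31 were higher and 21 lower (all genes: 11.2% and 59.3%), and scaled to the sum of all genes, 2 and 53 (all genes: 3.65% and 82.6%). On the deposited values all 5 COPD libraries lay above all controls in 1 nuclear gene and below them in 13, against 3.99% and 52.3% of all genes. Without COPD 5 the deposited values gave 26 higher genes in place of 17. Under all 4 scalings and with each library left out, 2 genes were called higher (Atp5f1e and Cox7b) and 5 lower (Atp5f1a, Uqcrc2, Ndufa4l2, Cox8b and one of the rows named Ndufv3). Cox8b and this Ndufv3 row passed the filter through control and WDD libraries, where they were higher, so their calls carry no weight.

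**Figure D3:**
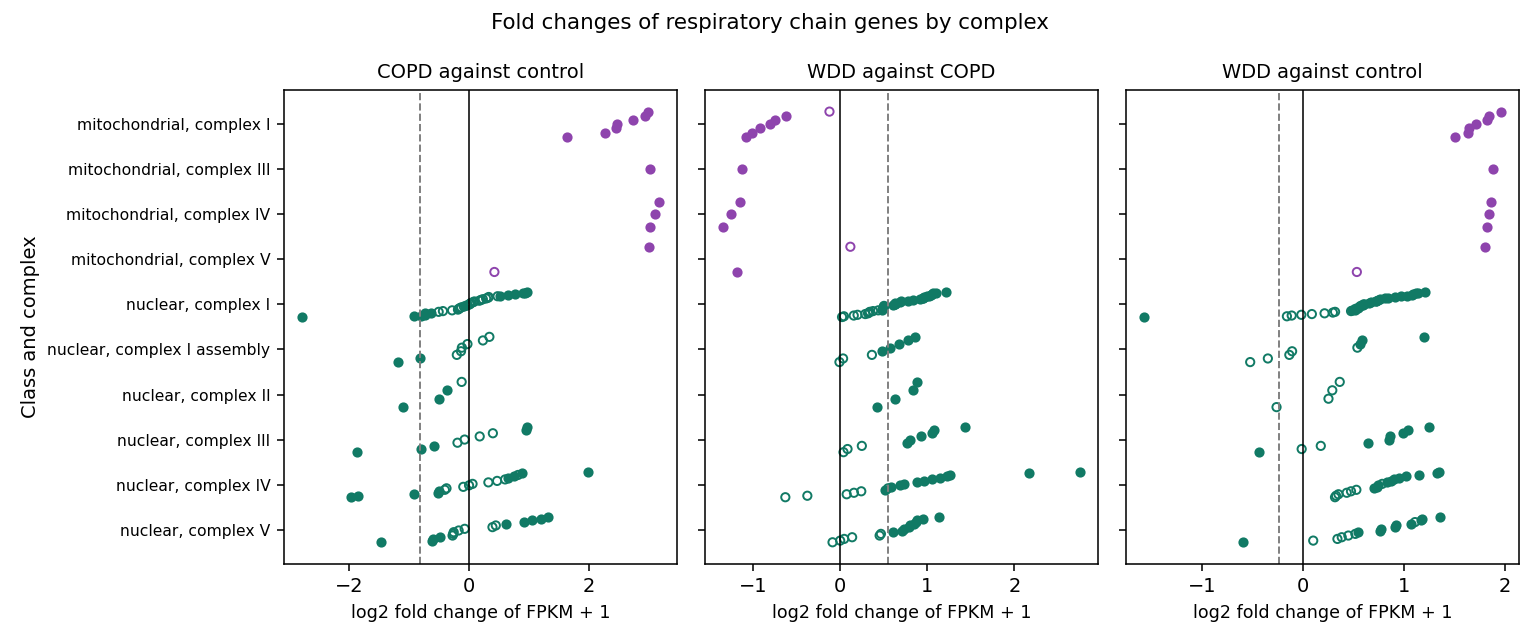
Log2 fold change of FPKM + 1 for each member, by class and complex and sorted within each, in the 3 comparisons. Filled circles passed an adjusted p of 0.05 (limma), open circles did not, and the dashed line is the median of all 13172 genes, -0.81, 0.54 and -0.23 from left to right.

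Promoters of nuclear members were read for sites of factors known to act on respiratory genes. A motif of the factor NRF1 was also searched at first and is not reported here. RefSeq promoters on build GRCr8, 250 bases before to 50 after a gene's start, matched 75 of 87 nuclear member symbols. On both strands, the ETS motif CCGGAAG was found in 26.7% of them and in 8.75% of all 33469 promoters, and the YY1 motif AANATGGC in 40.0% and 6.97%. Letters were read on each strand, and matches did not overlap in the promoters shown. A match is a description and not a bound site. Among members called higher, lower and neither in COPD against control lungs, the ETS motif was found in 6 of 14, 5 of 17 and 9 of 42 and the YY1 motif in 7 of 14, 8 of 17 and 15 of 42, leaving out symbols with several rows.

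The promoters of 4 genes that kept their call under all scalings are shown, with motif matches in capitals, as those of genes that moved in opposite directions. Uqcrc2, lower in COPD lungs, lies at chr1:184598990-184599289 (plus strand) and holds 2 ETS matches, and Ndufa4l2, also lower, lies at chr7:65241919-65242218 (plus strand) and holds 1 YY1 match. Cox7b, higher in COPD lungs, lies at chrX:75148786-75149085 (plus strand) and holds 1 YY1 match, and Atp5f1e, also higher, lies at chr3:183680123-183680422 (minus strand) and holds neither motif.
Uqcrc2: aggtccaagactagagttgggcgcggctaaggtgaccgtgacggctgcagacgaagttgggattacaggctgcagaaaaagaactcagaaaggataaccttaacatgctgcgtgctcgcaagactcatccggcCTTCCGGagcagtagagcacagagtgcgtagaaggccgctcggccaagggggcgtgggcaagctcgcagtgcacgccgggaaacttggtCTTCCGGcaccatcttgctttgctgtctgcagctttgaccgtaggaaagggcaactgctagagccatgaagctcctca
Ndufa4l2: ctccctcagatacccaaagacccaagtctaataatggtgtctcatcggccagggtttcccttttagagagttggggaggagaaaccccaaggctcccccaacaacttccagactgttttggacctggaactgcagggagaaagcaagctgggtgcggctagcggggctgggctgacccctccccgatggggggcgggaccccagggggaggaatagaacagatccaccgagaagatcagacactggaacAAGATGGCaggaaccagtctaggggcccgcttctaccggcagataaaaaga
Cox7b: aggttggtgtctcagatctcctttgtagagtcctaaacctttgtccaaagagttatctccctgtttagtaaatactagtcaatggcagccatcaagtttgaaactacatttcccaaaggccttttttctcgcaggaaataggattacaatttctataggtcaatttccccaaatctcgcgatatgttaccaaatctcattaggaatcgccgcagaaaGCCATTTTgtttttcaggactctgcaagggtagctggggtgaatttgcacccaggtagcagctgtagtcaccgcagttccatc
Atp5f1e: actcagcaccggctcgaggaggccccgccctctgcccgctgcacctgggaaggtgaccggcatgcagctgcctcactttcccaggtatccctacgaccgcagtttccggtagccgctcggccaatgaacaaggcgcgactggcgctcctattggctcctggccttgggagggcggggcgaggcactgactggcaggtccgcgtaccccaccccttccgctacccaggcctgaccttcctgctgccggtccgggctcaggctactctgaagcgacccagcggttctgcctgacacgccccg

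Subunits listed as catalytic or core were also counted apart from the rest. Of 11 such genes listed by function, among them Ndufs1, Sdha, Uqcrc1, Cox4i1 and Atp5f1a, 8 were called lower and none higher, none also at an unadjusted p under 0.05, beside 66.4% of all genes lower and 8.23% higher. Of the other 79, 16 were lower and 17 higher. These 79 hold further core subunits of complex I, Ndufs3, Ndufs7, Ndufs8 and Ndufv2. Their log2 fold changes were 0.01, -0.13, -0.15 and 0.17, and none was called. The 79 also hold Uqcrc2 of complex III, which was called lower, while Uqcrc1 is among the 11. Cox4i1 and Cox5a of the 11 are nuclear subunits of complex IV, whose catalytic core is mitochondrially encoded. After median-of-ratios scaling 5 of the 11 were higher and 1 lower, and 63 of the 79 were higher and 4 lower. The medians were -0.63 and 0.01 as deposited and 0.26 and 0.90 after that scaling. The difference between the 2 sets was not tested.

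Beside this stands a measure of long against short transcripts, taken as a mark of RNA quality. The median log2(FPKM + 1) of long housekeeping genes minus that of short ones was -2.66 to -1.76 in control, -4.56 to -3.77 in COPD and -4.15 to -3.13 in WDD libraries. Of 26 long genes tested all were lower in COPD than in control lungs, and of 33 short ones 20 were higher and 1 lower. Of all genes, 66.4% were lower and 8.23% higher. After median-of-ratios scaling 16 long genes were lower and 1 higher, and all 33 short ones were higher (all genes: 32.3% lower and 30.2% higher). Many accessory subunits are short and many catalytic ones long, but transcript lengths were not used here, and the part of transcript length in the nuclear pattern was not tested.

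Complex V held both directions. Atp5f1a, the alpha subunit of the catalytic head, stood at 149, 174, 171, 165 and 187 FPKM in control 1 to 5. It stood at 58.8, 72.6, 66.1, 51.1 and 54.6 FPKM in COPD 1 to 5 and at 113, 121, 98.99, 113 and 114 FPKM in WDD 1 to 5. The 3 groups did not overlap, with COPD lowest and control highest. On the log2 scale the differences were -1.47 ± 0.12 for COPD against control (adjusted p = 3.30e-08, limma), 0.88 ± 0.12 for WDD against COPD (adjusted p = 1.92e-05, limma) and -0.59 ± 0.12 for WDD against control (adjusted p = 0.00131, limma).

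Atp5f1e, the small epsilon subunit of the same head, stood at 268, 204, 149.6, 143 and 145 FPKM in control 1 to 5. It stood at 284, 766, 636, 469 and 253 FPKM in COPD 1 to 5 and at 409, 406, 397, 501 and 578 FPKM in WDD 1 to 5. WDD libraries lay above all controls, and COPD 5 lay below the highest control. The log2 fold changes were 1.31 ± 0.28 for COPD against control (adjusted p = 0.000473, limma) and 1.36 ± 0.28 for WDD against control (adjusted p = 0.00134, limma). Per 100 FPKM of Atp5f1a, Atp5f1e stood at 77.2 to 181 in control, 463 to 1055 in COPD and 336 to 507 in WDD lungs, a ratio free of library scaling. For COPD against control, Atp5f1a had the lowest and Atp5f1e the highest log2 fold change of complex V. Their ratio was thus bound to part these groups and is a description.

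Atp5f1b, the catalytic beta subunit, had -0.61 ± 0.16 for COPD against control (adjusted p = 0.00215, limma), which turned to 0.32 after median-of-ratios scaling. Atp5if1, the inhibitor that blocks the enzyme when the gradient falls, had 0.39 ± 0.22 (adjusted p = 0.124, limma) and stood 1.17 ± 0.22 higher in WDD than in control lungs (adjusted p = 0.000723, limma). Per 100 FPKM of Atp5f1b it stood at 25.7 to 42.5 in control, 53.6 to 76.3 in COPD and 62.7 to 70.8 in WDD lungs. Both exposed groups thus lay above all controls on this ratio.

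Complex III was split in the same way. Uqcrc2, a large matrix-side subunit, stood at 45.99, 34.97, 47.4, 51.03 and 56.1 FPKM in control 1 to 5. It stood at 13.8, 12.02, 10.8, 10.02 and 14.1 FPKM in COPD 1 to 5 and at 34.4, 37.9, 33.9, 35.3 and 30.5 FPKM in WDD 1 to 5. COPD libraries lay below all others, and WDD overlapped control. Its fold changes, in log2, were -1.87 ± 0.14 for COPD against control (adjusted p = 1.24e-08, limma) and 1.44 ± 0.14 for WDD against COPD (adjusted p = 7.01e-07, limma). Against control, Uqcrc2 was also called lower in WDD lungs, at -0.43 ± 0.14 (adjusted p = 0.0227, limma), or -0.15 and not called after median-of-ratios scaling.

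Uqcrq, a small accessory subunit of complex III, had 0.95 ± 0.24 for COPD against control (adjusted p = 0.002, limma) and 0.99 ± 0.24 for WDD against control (adjusted p = 0.00441, limma). For WDD against COPD it had 0.04 ± 0.24 (adjusted p = 0.902, limma), which became -0.60 after median-of-ratios scaling. Per 100 FPKM of Uqcrc2, a pair chosen after its values were seen, Uqcrq stood at 41.1 to 89.2 in control, 238 to 744 in COPD and 140 to 221 in WDD lungs. Uqcrc1 and the Rieske iron-sulfur protein Uqcrfs1 had -0.81 ± 0.12 and -0.59 ± 0.16 for COPD against control, or 0.11 and 0.34 with median-of-ratios values.

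**Figure D4:**
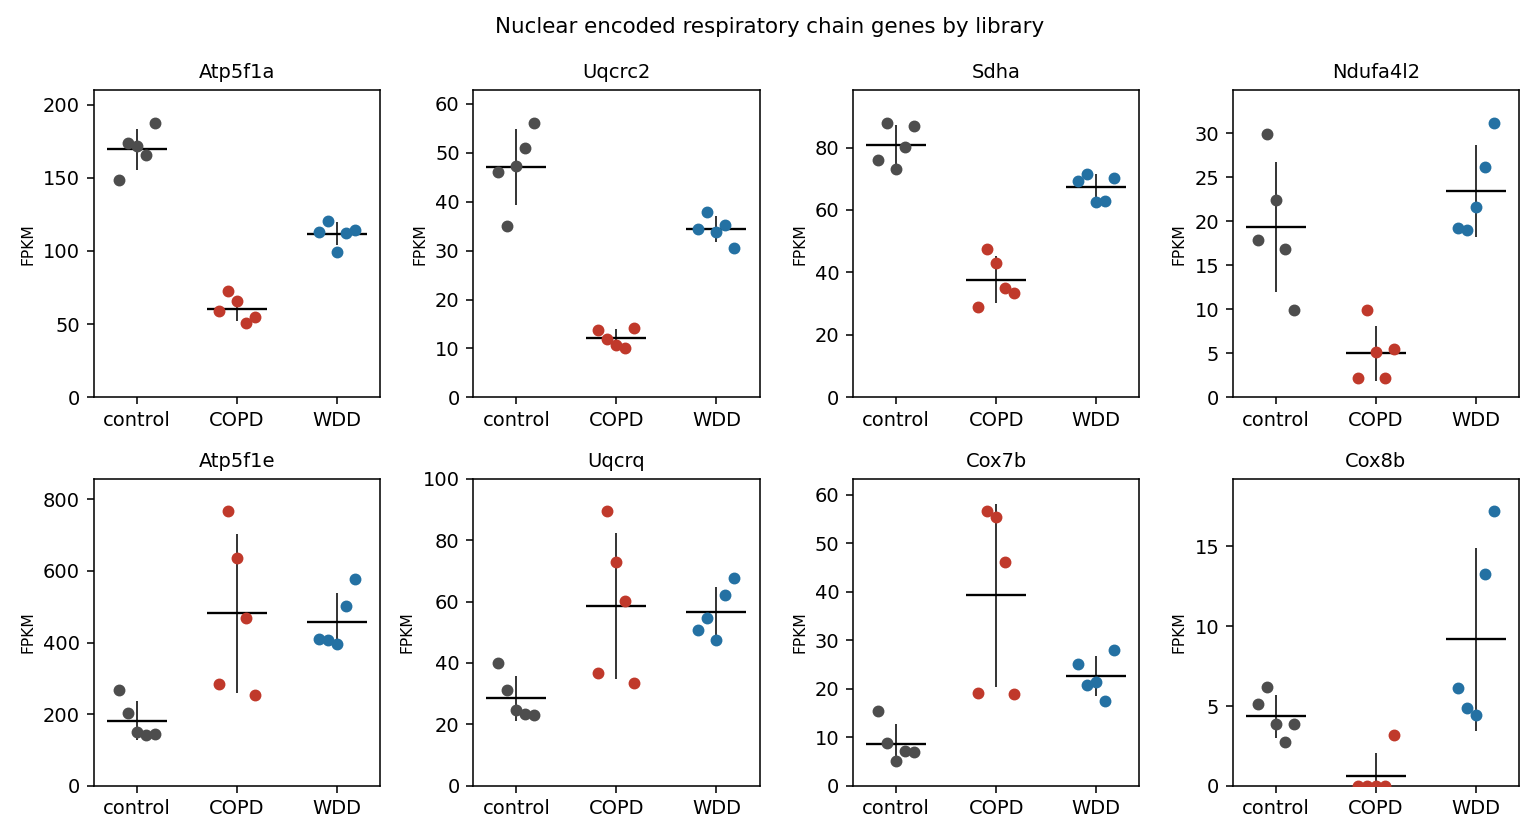
FPKM of 8 nuclear encoded genes by library, with the mean (horizontal bar) and SD (vertical bar, n = 5 per group). Atp5f1a, Uqcrc2 and Sdha are lowest in the COPD libraries, and Cox8b is listed at 0 in 4 of them.

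In complex IV, Cox7b, a small accessory subunit, stood at 15.4, 8.90, 5.16, 7.09 and 7.02 FPKM in control 1 to 5 and at 19.1, 56.6, 55.5, 46.1 and 18.97 FPKM in COPD 1 to 5. In WDD 1 to 5 it stood at 25.1, 20.8, 21.5, 17.4 and 28.1 FPKM. COPD and WDD libraries lay above all controls and overlapped each other. Cox7b thus had log2 fold changes of 1.98 ± 0.32 for COPD against control (adjusted p = 3.36e-05, limma) and 1.35 ± 0.32 for WDD against control (adjusted p = 0.00356, limma). Cox4i1, the most abundant nuclear subunit of complex IV, had -0.00 ± 0.24 for COPD against control, which became 0.93 after median-of-ratios scaling.

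Complex IV also has alternative isoforms beside its common forms. Ndufa4l2, a paralogue of Ndufa4 that is induced by low oxygen, stood at 17.9, 29.9, 22.4, 16.9 and 9.89 FPKM in control 1 to 5. It stood at 2.14, 9.89, 5.15, 2.18 and 5.54 FPKM in COPD 1 to 5 and at 19.2, 19.04, 21.6, 26.2 and 31.2 FPKM in WDD 1 to 5. COPD 2 and control 5 stood at nearly the same level, and the other COPD libraries lay below all of the rest. The log2 fold changes were -1.85 ± 0.32 for COPD against control (adjusted p = 7.27e-05, limma) and 2.17 ± 0.32 for WDD against COPD (adjusted p = 3.70e-05, limma).

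Per 100 FPKM of Ndufa4, Ndufa4l2 stood at 47.7 to 116 in control, 5.17 to 17.999 in COPD and 34.9 to 48.8 in WDD lungs. Cox4i2, the lung-enriched form of Cox4, stood per 100 FPKM of Cox4i1 at 6.53 to 13.5 in control, 3.96 to 6.61 in COPD and 6.004 to 8.48 in WDD lungs, ranges that touch. Cox8b, the heart and muscle form of Cox8, stood at 5.16, 6.17, 3.87, 2.72 and 3.85 FPKM in control 1 to 5, was listed at 0 in COPD 1 to 4 and at 3.18 FPKM in COPD 5, and stood at 6.12, 4.88, 4.44, 13.3 and 17.2 FPKM in WDD 1 to 5. Summed markers of cardiac and striated muscle lay at 20.0 to 36.7, 30.9 to 48.9 and 17.2 to 37.9 FPKM in control, COPD and WDD lungs, and their part in Cox8b was not tested.

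Complex II is the one complex without a mitochondrial gene. Sdha, its catalytic flavoprotein, stood at 76.1, 87.9, 73.1, 80.2 and 86.7 FPKM in control 1 to 5, 29.1, 47.6, 42.9, 35.1 and 33.5 FPKM in COPD 1 to 5 and 69.3, 71.6, 62.5, 62.8 and 70.1 FPKM in WDD 1 to 5. The 3 groups did not overlap. In log2 the differences were -1.10 ± 0.13 for COPD against control (adjusted p = 1.61e-06, limma), or -0.18 and not called after median-of-ratios scaling, and 0.84 ± 0.13 for WDD against COPD (adjusted p = 6.50e-05, limma). Sdhb, the iron-sulfur subunit, had -0.13 ± 0.16 for COPD against control (adjusted p = 0.477, limma), which turned to 0.80 after that scaling. Complex II held 4.35 to 5.62% of the nuclear FPKM sum in control, 2.88 to 3.97% in COPD and 3.36 to 3.75% in WDD lungs.

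Complex I, the largest complex, had some core subunits lower in COPD lungs, and accessory ones in both directions. Ndufv1 and Ndufs1, which carry part of the electron path of the peripheral arm, had -0.74 ± 0.15 and -0.63 ± 0.16 for COPD against control; after median-of-ratios scaling they had 0.18 and 0.26, neither of them called. Ndufb7 and Ndufa13, accessory subunits, had 0.96 ± 0.27 and 0.93 ± 0.29. Ndufb8 and the tested row named Ndufa10l1, also accessory, had -0.73 ± 0.20 and -0.74 ± 0.13, both called lower. After median-of-ratios scaling they had 0.19 and 0.16, neither of them called. COPD and control libraries overlapped for Ndufv1, Ndufs1, Ndufb7 and Ndufa13, but not for Ndufb8 and this Ndufa10l1 row. One of 2 rows named Ndufv3 (ENSRNOG00000027593) stood at 6.47, 8.19, 8.05, 6.51 and 10.01 FPKM in control 1 to 5. It stood at 0, 0.218, 0, 1.64 and 0 FPKM in COPD 1 to 5, with -2.79 ± 0.26 for COPD against control. This row passed the filter on low values through control and WDD libraries, where it was higher, so no test is given. The other row of that name (ENSRNOG00000001182) had -0.80 ± 0.24. Reads may be split between rows that share a symbol, as for Ndufv3, Uqcrb and Cox6b1, so these values are uncertain.

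In WDD against COPD lungs, 60 of 90 nuclear genes were higher and none lower, none also at an unadjusted p under 0.05, with a class median of 0.65 against 0.54 for all genes, of which 57.1% were higher. All 11 listed core subunits were among the 60, but after median-of-ratios scaling 1 of the 11 was higher and none lower. Without COPD 1, and also without COPD 5, 1 gene was called lower. All 5 WDD libraries lay above all COPD libraries in 36 genes and below them in none, against 40.6% and 4.43% of all genes. With median-of-ratios values 7 were higher and 10 lower, with a median of 0.03 (all genes: 23.4% and 21.4%). Under all 4 scalings and with each library left out, 7 were higher: Atp5mc2, Cox7a2l, Cox8b, Ndufa4l2, Ndufv1, Uqcrc2 and the Ndufv3 row ENSRNOG00000027593. Of these, Cox8b and the Ndufv3 row passed the filter through control and WDD libraries, so their calls carry no weight.

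In WDD against control lungs, 50 nuclear genes were higher and 3 lower, while 6.35% of all genes were higher and 31.0% lower, and the class median was 0.60 against -0.23. All 5 WDD libraries lay above all controls in 48 nuclear genes and below them in 3, against 6.76% and 31.4% of all genes. With median-of-ratios values 70 were higher and 2 lower (all genes: 15.9% and 16.9%), and scaled to the sum of all genes, 21 and 10 (all genes: 2.31% and 57.6%). Of the 50, 21 were higher under all 4 scalings and with each library left out, among them Ndufb7, Ndufa13, Uqcr11, Uqcrq, Ndufa4, Cox7b, Atp5if1, Atp5mf and Atp5f1e. Uqcr11, a small complex III subunit, had 1.25 ± 0.27 (adjusted p = 0.00194, limma), and Ndufa4 had 1.15 ± 0.28 (adjusted p = 0.0044, limma). Of the 11 listed core subunits, Cox4i1 was higher, Atp5f1a lower, and the other 9 were not called on the deposited values. With median-of-ratios values 6 of these 11 were higher and 1 lower.

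**Figure D5:**
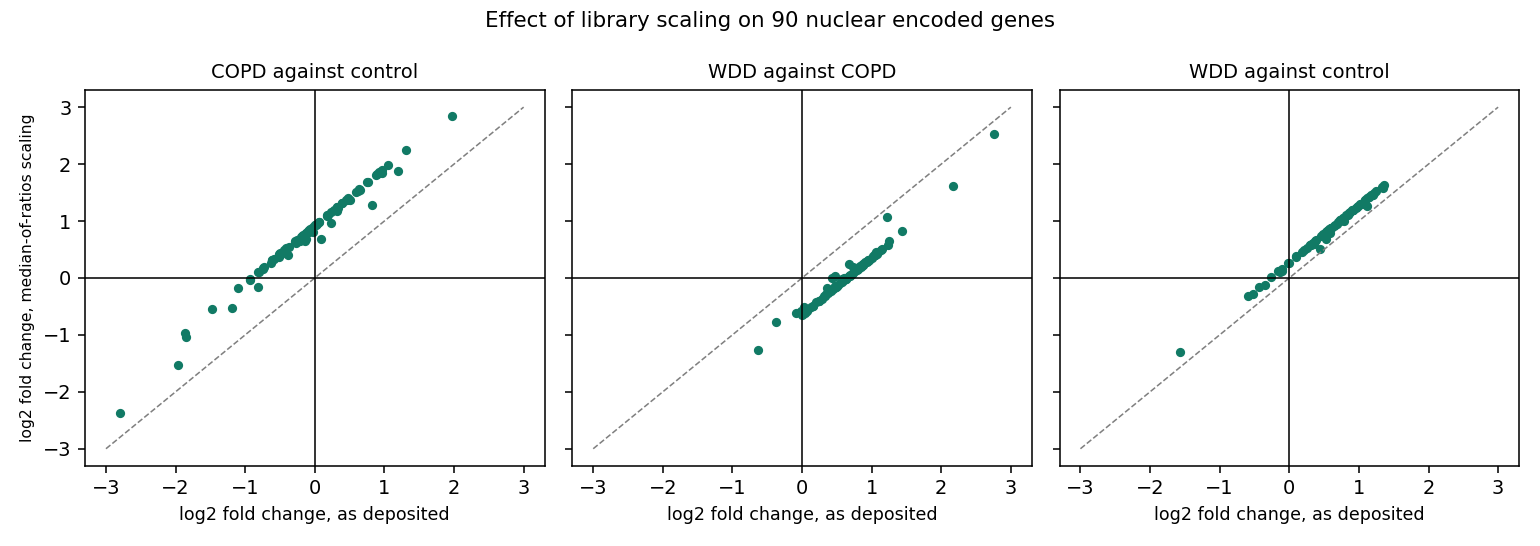
Log2 fold changes of the 90 nuclear genes as deposited (horizontal) and after median-of-ratios scaling (vertical) in the 3 comparisons, with the line of equality dashed. Points in the upper left quadrant for COPD against control and in the lower right for WDD against COPD changed sign, and the class medians moved from -0.08 to 0.82, from 0.65 to 0.03 and from 0.60 to 0.88.

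Other genes of the pathway were read from lists chosen by function. Their counts in COPD against control lungs stand beside 8.23% of all genes higher and 66.4% lower, or 30.2% and 32.3% after median-of-ratios scaling, and nothing particular to a list is read from them. Of 8 regulators of nuclear respiratory genes, 2 were higher and 5 lower in COPD against control lungs, and 4 and 2 after median-of-ratios scaling. Ppargc1a, the coactivator that raises mitochondrial gene expression, stood at 2.49 ± 0.665, 0.206 ± 0.129 and 0.792 ± 0.289 FPKM in control, COPD and WDD lungs (mean ± SD, n = 5). It passed the filter on low values through the control libraries, where it was highest, so no test is given. Nrf1, a transcription factor of respiratory genes, had -0.54 ± 0.14, or 0.32 after that scaling.

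Of 20 genes of mitochondrial transcription and RNA processing, 2 were higher and 8 lower in COPD against control lungs, or 15 and 2 after median-of-ratios scaling. Polrmt, the mitochondrial RNA polymerase, had -0.45 ± 0.19 (adjusted p = 0.0402, limma) and Tfam, which packages and activates mitochondrial DNA, had -0.43 ± 0.17 (adjusted p = 0.0337, limma), and these values became 0.39 and 0.45 with it. Of 10 genes of mitochondrial DNA maintenance none was higher and 6 were lower, beside 66.4% of all genes lower, or 3 and 2 after scaling. Polg, the mitochondrial DNA polymerase, fell by 1.72 ± 0.17 (adjusted p = 2.03e-07, limma), and by that scaling fell by 0.90. The mitochondrial messages themselves were 2.93 higher at the median.

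Of 16 genes of the tricarboxylic acid cycle and pyruvate dehydrogenase, none was higher and 12 were lower in COPD against control lungs, beside 66.4% of all genes lower, or 6 and 2 after median-of-ratios scaling. Cs, citrate synthase, stood at 70.1 ± 8.14, 26.1 ± 2.31 and 39.0 ± 4.83 FPKM in control, COPD and WDD lungs (mean ± SD, n = 5). It fell by 1.39 ± 0.12 in COPD (adjusted p = 7.25e-08, limma). Of 8 electron carriers and other donors to ubiquinone, 1 was higher and 4 lower, or 6 and none after scaling. Cycs, cytochrome c, had 0.77 ± 0.18 (adjusted p = 0.000901, limma), while Cyc1, the cytochrome of complex III, had -0.56 ± 0.12 (adjusted p = 0.000448, limma), which turned to 0.36 after median-of-ratios scaling.

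Assembly factors outside the member names are needed to build the complexes. Of 10 for complex I, none was higher and 9 were lower in COPD against control lungs, of 13 for complexes II, III and V, 1 was higher and 6 lower, and of 17 for complex IV, 2 were higher and 7 lower. With median-of-ratios values the same lists had 3 and 1, 6 and 1, and 10 and 2. Cox15 and Cox11, which supply heme and copper to complex IV, fell by 1.41 ± 0.17 and 1.30 ± 0.17 (adjusted p = 1.34e-06 and 3.07e-06, limma), and stayed lower after that scaling, at -0.83 and -0.78.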

How the data were processed

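RNA was sequenced from 15 rat lung libraries. TRIzol was used for extraction, and the NEBNext Ultra kit for libraries from 1 ug of RNA, per the labels' protocols. Per the submitters' processing notes, cutadapt, HISAT2, StringTie and the build Rnor_6.0 were used, with no versions given. The deposited values are FPKM, computed by the authors; counts, strand use and the annotation are not stated.

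Genes that reached 1 FPKM in 5 or more libraries were fitted by group on log2(FPKM + 1), all 15 libraries together, with limma 3.58.1 in R 4.3.3 (eBayes with trend). Tests were two-sided, with Benjamini-Hochberg adjustment over all 13172 genes and calls at an adjusted p under 0.05. The script was tested on simulated data. Other scalings, a pseudocount of 0.1, no filter, pairwise fits, a replicate block, a minimum log2 fold change of 1 and omission of each library were tried. Replicate numbers did not pair the libraries. Members and lists were chosen with earlier results of these data known. Named members were all mitochondrial genes, the core subunits, isoform pairs and Atp5if1, and per complex the most abundant gene and those with the highest and lowest change; named pathway genes were those of lowest p, with Polrmt, Tfam and Nrf1 added after their values were seen. Ndufb8 and an Ndufa10l1 row were also named after their values were seen. One member is counted but not reported singly here. Sums, ratios and figures were made with Python 3.11.15, numpy 2.4.6, pandas 2.3.3 and matplotlib 3.10.9.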

Additional observations from a re-analysis of the deposited data

Results flagged for a closer look

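In 11 of 162 groups of 5 libraries checked, 1 library stood apart, its gap to the nearest other exceeding 0.71 of the group's range. By chance about 1 in 20 groups is flagged. Control 1 was the highest control for 5 genes: 139.5 FPKM for Atp5if1 (others 78.2 to 95.8), 238.3 for Atp5mf (others 144 to 159), 153.4 for Cox5a (others 101 to 115), 83.97 for Ndufb7 (others 44.2 to 53.8) and 17.73 for the Uqcrb row ENSRNOG00000024967 (others 9.03 to 10.6). COPD 1 was the highest COPD library for Mt-co2, at 98843 FPKM (others 42534 to 58219), and for Mt-nd3, at 8857 (others 3983 to 5232). Cox6a2 stood at 7.341 FPKM in COPD 2 (others 0.943 to 2.14), and Cox8b at 3.183 in COPD 5, being listed at 0 in the other 4. The Ndufv3 row ENSRNOG00000027593 stood at 1.644 FPKM in COPD 4 (others 0 to 0.218). Cox6b2 stood at 5.113 FPKM in WDD 1, below the others (9.17 to 10.7). Their causes were not tested.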

How the results depend on the processing

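The scaling of the libraries moved many nuclear counts. Median-of-ratios scaling gave nuclear medians of 0.82, 0.033 and 0.88 for COPD against control, WDD against COPD and WDD against control, mitochondrial medians of 3.87 and -1.67 for the first and second of these, 68 higher and 5 lower nuclear genes in COPD against control, and 7 higher and 10 lower in WDD against COPD. It changed the sign, for COPD against control, of Atp5f1b (0.32), Atp5mc2 (0.31), Cox4i1 (0.93), Cox5a (0.83), Cox6a1 (0.41), Cox8a (0.52), Ndufaf7 (0.68), Ndufs1 (0.26), Ndufv1 (0.18), Sdhb (0.80), Sdhd (0.41), Uqcrc1 (0.11), Uqcrfs1 (0.34) and Uqcrh (0.85), and for WDD against COPD, of Atp5f1e (-0.61), Atp5mf (-0.52), Cox5a (-0.071), Ndufs1 (-0.14), Sdhb (-0.23), Uqcrq (-0.60) and the Uqcrb row ENSRNOG00000024967 (-0.54). Several of these were called only as deposited, as Ndufv1 for COPD against control, or only after the scaling, as Cox4i1. Scaled to the sum without mitochondrial genes, 31 nuclear genes were higher in COPD against control, 2 lower in WDD against COPD with a median of 0.30, and 5 lower in WDD against control. Scaled to the sum of all genes, COPD against control had 2 higher and 53 lower nuclear genes, a nuclear median of -0.61 and a mitochondrial one of 2.36, and WDD against control had 21 higher and 10 lower and a median of 0.26. Requiring a log2 fold change of at least 1 left, for nuclear genes, 4 higher and 7 lower, 17 higher, and 17 higher and 1 lower in the 3 comparisons, and 7 mitochondrial genes lower in WDD against COPD. Without a filter 6 mitochondrial genes were lower in WDD against COPD, and a fit of only the 2 groups gave 6 lower nuclear genes in WDD against control. Leaving out each library gave 13 to 26 higher nuclear genes in COPD against control and 0 to 1 lower in WDD against COPD. With the replicate block, 16 nuclear genes were higher and 23 lower in COPD against control, 55 higher in WDD against COPD and 48 higher in WDD against control; 1 of 15 same-numbered pairs correlated above 0.1. Apart from the scalings themselves, the cause was not tested. FPKM carry no counting error, so none is given.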
